A study of Rattus norvegicus with 6 samples.

Results

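The kinesin, dynein and dynactin genes of sensory neurons were examined in neurons that spontaneously hypertensive rats (SHRs) carry in their dorsal root ganglia (DRGs) at L1-L2. The members were the protein-coding genes of the deposited table whose symbols name a kinesin, a kinesin light chain, a subunit of cytoplasmic dynein, a dynactin subunit (Dctn1 to Dctn6) or a BICD adaptor, which gave 68 of 25689 genes. They comprised 20 kinesins and kinesin light chains of axonal transport, 14 mitotic kinesins, 11 other kinesins, 13 dynein genes, 6 dynactin genes and 4 BICD adaptor genes. The axonal transport kinesins are described apart from the mitotic kinesins throughout.

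RNA was sequenced from 3 samples taken 4 weeks after perirenal adipose tissue ablation (PRATA) and from 3 samples of sham-operated rats. These ganglia hold cell bodies of the afferent nerves that supply the perirenal fat, and the comparison asks which of their transcripts differ once that tissue is ablated. All 6 samples came from the SHR strain with a genotype labelled wild type, and no sample came from a strain with normal blood pressure. The labels give an age of 6 to 8 weeks, whereas the methods of the study give 12 weeks at purchase. Collagenase and trypsin freed the cells of the ganglia, and neurons were enriched because they attach to the dish more slowly, so that every sample measured dissociated cells. The sources do not say whether a sample was 1 animal or a pool of animals, and the p-values below therefore measure the spread between these samples.

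Kinesins and cytoplasmic dynein are motor proteins that walk along microtubules and burn ATP to carry cargo. In an axon most kinesins carry vesicles, mitochondria and protein complexes from the cell body towards the terminals, while cytoplasmic dynein, bound to dynactin and to an adaptor such as a BICD protein, carries endosomes and survival signals back. Sensory neurons of the DRG have very long axons and depend on both directions of transport, while mitotic kinesins build and move the spindle of dividing cells and are low in neurons that no longer divide.

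Sham replicate 2 was sequenced least deeply, with a total count of 5892967, and sham replicate 1 most deeply, with 15226952, and 3 counts, taken as the floor of detection, corresponded to between 0.207 and 0.468 CPM (counts scaled to a common library size with edgeR's TMM factors). Floors cover counting error only, since the reads carried no molecular identifiers. The 20 sensory neuron markers listed, such as Tubb3, Prph and Scn10a, were detected in every sample, and so were the 8 satellite glial cell markers, which include Apoe. PRATA replicate 3 and sham replicate 1 stood apart from the other libraries in 1 technical respect: 98.9% and 99.5% of their reads on 7SL RNA genes fell on the copy Rn7sl1, against 47.3% to 49.3% in the other 4 samples.

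The motor genes took 1.73%, 1.57% and 1.78% of all counts after PRATA and 1.11%, 1.68% and 1.25% after sham, in the order of replicates 1, 2 and 3 kept throughout. The share was thus lowest in sham replicates 1 and 3, while sham replicate 2 lay within the range of the PRATA samples. Of the 68 members, 60 passed the filter on low counts. The other 8, which were Kif2b, Kif2c, Kif14, Kif18b, Kif6, Kif12, Kif28p and Dynlrb2, were not tested. Of the 60 genes tested, 48 had a positive log2 fold change (PRATA against sham), and their median was 0.29 beside a median of 0.03 over all 14919 genes tested.

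In edgeR's quasi-likelihood fit, at an unadjusted p under 0.05, 11 motor genes rose after PRATA, beside 8.19% of all genes tested, and 3 fell, beside 10.1%. Genes are said to have risen, fallen or passed the test only by that threshold. Those that rose were Kif5c, Klc1, Klc3, Klc4, Kif3c, Kif21a, Kif21b, Kifc2, Kif19, Kif26b and Bicdl1, and those that fell were Kif1c, Kifc3 and Dynlt1. With a log2 fold change beyond 1 asked for as well, 3 rose (Bicdl1, Klc3 and Kif19), beside 1.17% of all genes, and 0 fell, beside 3.23%. The lowest PRATA sample lay above the highest sham sample for 18 members, beside 11.6% of all genes, and the reverse held for 3 members, beside 11.2%.

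After Benjamini-Hochberg adjustment of edgeR's quasi-likelihood p, none of the 60 members passed 0.05, and none of all 14919 genes did, the smallest adjusted p being 0.156. Other tests of the same counts called more genes. With limma voom and sample quality weights, 6 members were higher at an adjusted p under 0.05 (Bicdl1, Kif21a, Kif3c, Kif5c, Kifc2 and Klc1), beside 3.0% of all genes, and 2 were lower (Kif1c and Kifc3), beside 4.87%. With DESeq2, 3 were higher (Bicdl1, Kif19 and Kifc2), beside 1.93% of the 11692 genes given an adjusted p, and 0 were lower, beside 4.29%.

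The number of motor genes that rose depended on single libraries. It was 18 without sham replicate 2, beside 13.4% of all genes tested in that fit, and 12 without PRATA replicate 2, beside 7.53%. It was 7 without sham replicate 1, beside 6.48%, and 5 without PRATA replicate 3, beside 5.55%. It was 4 without PRATA replicate 1, beside 3.47%, and also 4 without sham replicate 3, beside 3.76%. The share of all genes that rose was thus highest and lowest in the same fits as the count of motor genes. Without sham replicate 2, edgeR's adjusted p fell under 0.05 for Bicdl1, beside 1.05% of the 15438 genes then tested that were higher, and for Kifc3, beside 3.62% that were lower. Without PRATA replicate 3 and sham replicate 1, the libraries that stood apart by their 7SL RNA, 5 members rose, beside 5.98% of all genes, and 1 fell, beside 6.90%.

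The neuron markers moved the same way as most motor genes. All 20 had a positive log2 fold change, beside 52.0% of all genes, with a median of 0.51. At an unadjusted p under 0.05, 6 of them rose, beside 8.19% of all genes. Their summed level was 15680 to 23050 CPM after PRATA and 10710 to 16350 CPM after sham. In such bulk samples a larger share of neurons and more of a transcript in each neuron cannot be told apart. A second scale was therefore used beside CPM, in which the mean log2 level of the 20 neuron markers was subtracted from the log2 level of each gene in each sample. On that scale the median over the 60 motor genes tested was -0.29, beside -0.53 over all genes tested. A positive difference was found for 11 of the 60, beside 1702 of all 14919 genes tested. Most genes thus lay lower after PRATA on that scale, and the share of all genes without overlap between the groups was not computed for it.

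**Figure D1:**
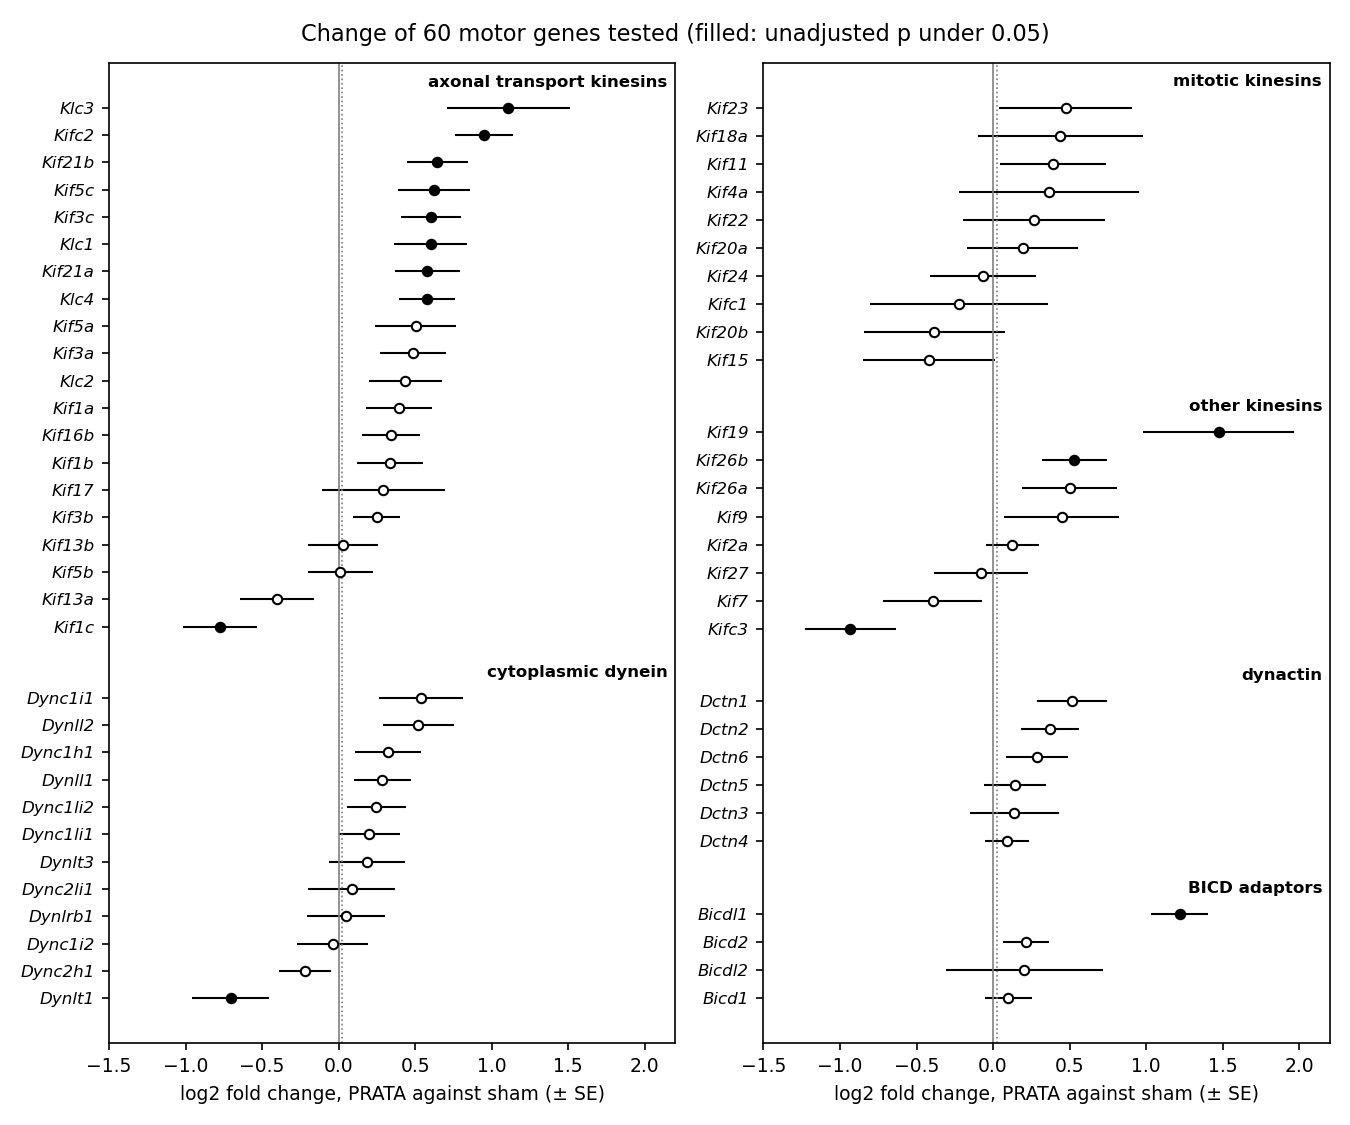
Log2 fold change between PRATA and sham samples of each of the 60 motor genes tested (horizontal axis), by family, as a point with a bar of 1 standard error to either side. Filled points mark an unadjusted p under 0.05, and the dotted line marks the median of all genes tested, 0.03. Bars of most dynein, dynactin and mitotic kinesin genes reach to near 0 or across it, while 8 axonal transport kinesins stand filled to the right.

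Among the 20 axonal transport kinesins, all of which were tested, 18 had a positive log2 fold change, beside 52.0% of all genes, 8 rose, beside 8.19%, and 1 fell, beside 10.1%. Their median log2 fold change was 0.46, and 12 of them did not overlap between the groups, with PRATA higher, beside 11.6% of all genes. The neuron markers had a like median, 0.51. The median of the axonal transport kinesins was 0.30 without sham replicate 1 and became -0.08 relative to the neuron markers, beside -0.53 over all genes tested.

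The heavy chains of kinesin-1, the main anterograde motor of axons, are encoded by Kif5a and Kif5c, which are largely neuronal, and by Kif5b, which most cell types use. Kif5c (ENSRNOG00000004680) was at 759.7, 621 and 747 CPM after PRATA and at 365, 586 and 432 CPM after sham. All PRATA samples lay above all sham samples, with a narrow gap between PRATA replicate 2 and sham replicate 2. Kif5c rose by 0.62 ± 0.24 on the log2 scale (adjusted p = 0.231), where the error, as for all log2 fold changes below, is the standard error, and p is adjusted over all genes in edgeR's quasi-likelihood test.

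Kif5a (ENSRNOG00000005299), the heavy chain whose mutation in humans causes hereditary spastic paraplegia, was at 1908, 1544 and 1834 CPM after PRATA and at 957, 1659 and 1116 CPM after sham. Sham replicate 2 lay inside the PRATA range and the groups overlapped, with a log2 fold change of 0.50 ± 0.26 (adjusted p = 0.340). Kif5b (ENSRNOG00000017466) was at 716, 535 and 676 CPM after PRATA and at 565, 707 and 639 CPM after sham. Its groups covered nearly the same range, and its log2 fold change was 0.01 ± 0.21 (adjusted p = 0.983). Relative to the neuron markers Kif5b lay lower in every PRATA sample than in every sham sample, with a difference of -0.56. That is near the median of -0.53 over all genes tested, and the share of all genes without overlap was not computed on that scale. Kif5a (-0.03) and Kif5c (0.07) overlapped.

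**Figure D2:**
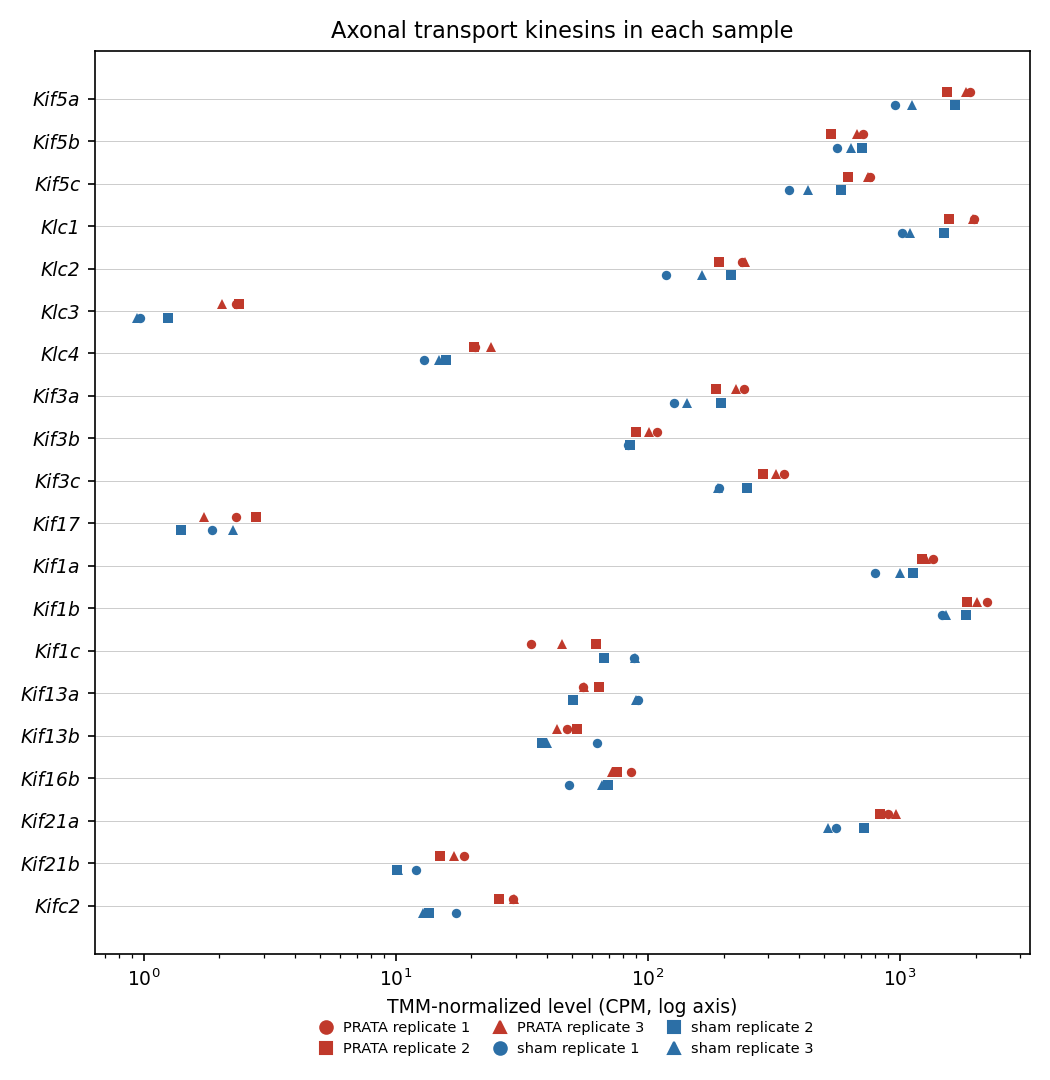
Level of each of the 20 axonal transport kinesins (vertical axis) in each sample, in TMM-normalized CPM on a log axis, with PRATA samples in red and sham samples in blue and 1 marker shape per replicate number. For most genes the blue square, sham replicate 2, sits nearest to the red markers, and only Kif1c has every red marker to the left of every blue one.

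The 2 heavy chains Kif5c and Kif5b, and the kinesin-2 subunits Kif3c and Kif3b, are 2 of the paralog pairs compared below. Their ratios did not overlap between the groups (p = 0.1 in exact permutation tests, the smallest value possible). Kif1a to Kif1c and Dync1i1 to Dync1i2 did not overlap either, and their upstream bases are not shown. For Kif5c, Kif5b, Kif3c and Kif3b the 250 bases before the transcription start are shown to set the upstream sequences side by side. The windows come from RefSeq on the GRCr8 assembly and all lie on the plus strand: Kif5c at chr3:54441057-54441306, Kif5b at chr17:56185136-56185385, Kif3c at chr6:32086629-32086878 and Kif3b at chr3:162218438-162218687. Each is written 5′ to 3′ up to the base before the start, with capitals marking matches on either strand to TGACGTCA (a cAMP response element, CRE), GCGCNTGCG (a core of the NRF1 motif), CCAAT or TTTGAA (the cell cycle homology region, CHR). Matches to GGGCGG, the GC box, are counted but not capitalised, and none of the capitalised matches overlap each other.
Kif5c: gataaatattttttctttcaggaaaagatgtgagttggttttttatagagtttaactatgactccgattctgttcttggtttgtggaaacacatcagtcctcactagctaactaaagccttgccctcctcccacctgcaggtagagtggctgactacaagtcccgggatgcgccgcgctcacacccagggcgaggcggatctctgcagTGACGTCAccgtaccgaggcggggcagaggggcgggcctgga
Kif5b: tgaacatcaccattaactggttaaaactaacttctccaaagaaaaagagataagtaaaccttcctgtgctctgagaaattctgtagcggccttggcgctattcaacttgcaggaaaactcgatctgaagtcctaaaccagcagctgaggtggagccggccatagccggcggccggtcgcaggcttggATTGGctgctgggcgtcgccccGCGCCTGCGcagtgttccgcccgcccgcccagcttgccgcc
Kif3c: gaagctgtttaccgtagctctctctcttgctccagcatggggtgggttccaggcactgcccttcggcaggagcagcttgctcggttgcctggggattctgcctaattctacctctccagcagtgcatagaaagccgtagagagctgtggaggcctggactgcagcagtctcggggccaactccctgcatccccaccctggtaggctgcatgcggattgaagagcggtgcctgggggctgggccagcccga
Kif3b: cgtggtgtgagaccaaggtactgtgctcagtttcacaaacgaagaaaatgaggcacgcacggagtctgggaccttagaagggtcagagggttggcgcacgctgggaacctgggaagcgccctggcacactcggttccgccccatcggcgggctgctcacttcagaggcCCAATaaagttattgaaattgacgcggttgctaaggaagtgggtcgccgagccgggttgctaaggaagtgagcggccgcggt

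The Kif5c window held the whole CRE starting 42 bases before the transcription start, a motif found in 1.59% of all 33469 windows of this length and in 1.89% of the 21842 windows of protein-coding genes. It also held 1 GC box starting 13 bases before the transcription start, and no NRF1, CCAAT or CHR match. The Kif5b window held an NRF1 match 41 bases and a CCAAT match 63 bases before the start, with 3 overlapping GC boxes between that NRF1 match and the start. NRF1 matches occurred in 5.03% and CCAAT matches in 34.0% of all windows. The Kif3b window held a CCAAT match 82 bases before the start and 1 GC box, and the Kif3c window held a match to none of the 5 motifs. The windows of Kif1a, Kif1c, Dync1i1 and Dync1i2, which are not shown, held no CRE match. All such matches describe letters in the windows and not bound sites.

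A window was found for 49 of the 68 members, while 2 had several and 17 had none, Kif5a among them. Over the 15 axonal transport kinesins with a window, 12 held a GC box, 2 a CRE (Kif5c and Kif17), 4 a CCAAT and 0 a CHR match. That is 80.0%, 13.3%, 26.7% and 0%, beside 30.5%, 1.59%, 34.0% and 16.2% of all windows. Among windows of protein-coding genes 38.9% held a GC box. Of the 11 mitotic kinesins with a window, 8 held a CCAAT match and 5 a CHR match, that is 72.7% and 45.5%, beside 34.0% and 16.2% of all windows. A GC box was held by 7 and a CRE by 1, that is 63.6% and 9.09%, beside 30.5% and 1.59%. Whether the 2 kinesin families differed in these matches was not tested. The median GC content of the windows was 63.2% in both, beside 51.2% over all windows and 54.0% over those of protein-coding genes. The GC box shares above are not adjusted for that higher GC content, whose part in them was not tested.

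Kinesin light chains bind cargo adaptors and hold kinesin-1 in its inactive fold until cargo is loaded. Klc1 (ENSRNOG00000011572), the main light chain of neurons, was at 1966, 1568 and 1953 CPM after PRATA and at 1022, 1495 and 1099 CPM after sham. The groups did not overlap, though PRATA replicate 2 and sham replicate 2 lay close to each other. Klc1 rose by 0.60 ± 0.24 on the log2 scale (adjusted p = 0.241). Klc2 (ENSRNOG00000020299), a second light chain expressed in many tissues, was at 237, 192 and 243 CPM after PRATA and at 118, 214 and 164 CPM after sham, where sham replicate 2 exceeded PRATA replicate 2. Its log2 fold change was 0.44 ± 0.24 (adjusted p = 0.367).

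The remaining light chains, Klc3 and Klc4, also rose. Klc3 (ENSRNOG00000018101), best known from spermatids, was at 2.32, 2.39 and 2.06 CPM after PRATA and at 0.967, 1.25 and 0.945 CPM after sham. These are low levels, resting on 18, 30 and 26 counts after PRATA and on 14, 8 and 10 counts after sham, but the groups were well apart. The log2 fold change of Klc3 was 1.11 ± 0.40 (adjusted p = 0.222), and relative to the neuron markers it stayed higher in every PRATA sample, by 0.47. The share of all genes without overlap on that scale was not computed.

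Klc4 (ENSRNOG00000018168), a light chain linked to axon branching, was at 20.7, 20.6 and 24.0 CPM after PRATA and at 12.99, 15.9 and 14.9 CPM after sham. Its groups did not overlap, sham replicate 2 again being the highest of its group. Klc4 rose by 0.58 ± 0.18 on the log2 scale (adjusted p = 0.188), while relative to the neuron markers its groups overlapped, with a difference of 0.002. When each sample was left out in turn, Klc4 no longer passed without PRATA replicate 3 (log2 fold change 0.50). Kif5c and Klc1 each passed only without PRATA replicate 2 or sham replicate 2, and their log2 fold changes in the 4 fits without one of the other samples were 0.46 to 0.59 and 0.47 to 0.55. Klc3 passed only without sham replicate 2, with log2 fold changes of 1.03 to 1.23 over the 6 fits.

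Kinesin-2 motors are made of KIF3A with either KIF3B or KIF3C and carry membrane and cilium components. Kif3c (ENSRNOG00000011394), the neuron-rich partner, was at 348, 288 and 323 CPM after PRATA and at 192, 249 and 191 CPM after sham. The groups did not overlap. Kif3c rose by 0.60 ± 0.19 on the log2 scale (adjusted p = 0.192) and no longer passed without PRATA replicate 1 (0.52) or sham replicate 3 (0.55).

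Kif3a (ENSRNOG00000007515), the shared subunit, was at 240.4, 187 and 224 CPM after PRATA and at 127, 195 and 143 CPM after sham. Only sham replicate 2 reached into the PRATA range, and the log2 fold change was 0.49 ± 0.21 (adjusted p = 0.277). Kif3b (ENSRNOG00000010361) was at 109, 90.2 and 102 CPM after PRATA and at 83.5, 84.8 and 85.1 CPM after sham. All PRATA samples lay above all sham samples, but by little, and the log2 fold change of 0.25 ± 0.15 did not pass the test (adjusted p = 0.412). Kif17 (ENSRNOG00000014970), a kinesin-2 homodimer of dendrites and cilia, was low, at 2.32, 2.79 and 1.74 CPM after PRATA and at 1.87, 1.41 and 2.27 CPM after sham, with overlapping groups and a log2 fold change of 0.29 ± 0.40 (adjusted p = 0.731).

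Kinesin-3 motors move quickly over long distances and carry vesicles and mitochondria. Kif1a (ENSRNOG00000023993), the motor of synaptic vesicle precursors and dense core vesicles, was at 1360, 1227 and 1269 CPM after PRATA and at 802, 1128 and 999.5 CPM after sham. Kif1b (ENSRNOG00000057626), whose isoforms carry mitochondria and synaptic vesicle precursors, was at 2226, 1847 and 2021 CPM after PRATA and at 1473, 1839 and 1521 CPM after sham. In both genes the groups did not overlap, by a narrow margin in Kif1b, and neither passed the test, with log2 fold changes of 0.40 ± 0.22 (adjusted p = 0.355) and 0.33 ± 0.21 (adjusted p = 0.431).

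Kif1c (ENSRNOG00000031364), the widely expressed member of the KIF1 group that moves secretory vesicles, went the other way. It was at 34.6, 62.2 and 45.7 CPM after PRATA and at 88.0, 67.1 and 89.2 CPM after sham. The whole PRATA group lay below the sham group, with PRATA replicate 2 and sham replicate 2 nearest to each other. Kif1c fell by 0.78 ± 0.24 on the log2 scale (adjusted p = 0.185), with p under 0.05 in all 6 fits with a sample left out. The other kinesin-3 genes, Kif13a, Kif13b and Kif16b, had log2 fold changes between -0.41 and 0.34 and none passed the test.

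Among the remaining motors of axons, KIF21A and KIF21B are kinesin-4 motors that slow microtubule growth, and KIFC2 is a neuronal kinesin directed to microtubule minus ends. Kif21a (ENSRNOG00000014844) was at 895, 832 and 964 CPM after PRATA and at 559, 724 and 519 CPM after sham. Kif21b (ENSRNOG00000008471) was at 18.7, 14.98 and 17.1 CPM after PRATA and at 12.02, 10.2 and 10.2 CPM after sham. Neither gene overlapped between the groups, and they rose by 0.58 ± 0.21 (adjusted p = 0.225) and by 0.64 ± 0.20 (adjusted p = 0.182) on the log2 scale. Kif21a passed only without PRATA replicate 2 or sham replicate 2 when each sample was left out, with 0.49 to 0.56 in the other 4 fits, and Kif21b no longer passed without PRATA replicate 1 (0.54).

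Kifc2 (ENSRNOG00000060123) was at 29.3, 25.8 and 29.6 CPM after PRATA and at 17.3, 13.6 and 12.9 CPM after sham. The PRATA samples were close together and all far above the highest sham sample, which was replicate 1. Kifc2 rose by 0.95 ± 0.19 on the log2 scale (adjusted p = 0.156), with p under 0.05 in all 6 fits with a sample left out and an adjusted p of 0.0315 by limma voom and 0.00767 by DESeq2. The difference was 0.39 relative to the neuron markers, where the groups overlapped.

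The second question was whether paralogous subunits of the same motor moved together within a sample. A ratio of the counts of 2 genes in 1 sample does not depend on library scaling, while its size depends on transcript length, so that only its difference between samples is read here. Kif5c counts were 1.06, 1.16 and 1.10 times the Kif5b counts after PRATA and 0.647, 0.828 and 0.677 times after sham. The ratio was higher in every PRATA sample, by 0.64 on the log2 scale or 1.56-fold.

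Kif5a to Kif5b gave 2.67, 2.89 and 2.71 after PRATA and 1.69, 2.35 and 1.75 after sham, a difference of 0.53 or 1.44-fold. Kif1a to Kif1c gave 39.3, 19.8 and 27.8 after PRATA and 9.11, 16.8 and 11.2 after sham, a difference of 1.22 or 2.32-fold, the widest of the 6 ratios. These ratios of a largely neuronal to a broadly expressed paralog did not overlap between the groups, although Kif5a itself did.

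Kif3c to Kif3b gave 3.19, 3.20 and 3.17 after PRATA and 2.29, 2.94 and 2.24 after sham, a difference of 0.37 or 1.29-fold with very little spread among the PRATA samples. Dync1i1 to Dync1i2, the neuronal and the general intermediate chain of dynein, gave 0.464, 0.385 and 0.403 after PRATA and 0.263, 0.321 and 0.246 after sham, a difference of 0.60 or 1.52-fold. Bicd1 to Bicd2 gave 0.485, 0.452 and 0.434 after PRATA and 0.439, 0.514 and 0.533 after sham, with overlapping groups and a difference of -0.11. In exact two-sided permutation tests the first 5 ratios reached p = 0.1, the smallest value that 3 samples against 3 allow (adjusted over the 6 ratios 0.12), and Bicd1 to Bicd2 gave p = 0.3. No ratio could therefore pass a threshold of 0.05 in this design.

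**Figure D3:**
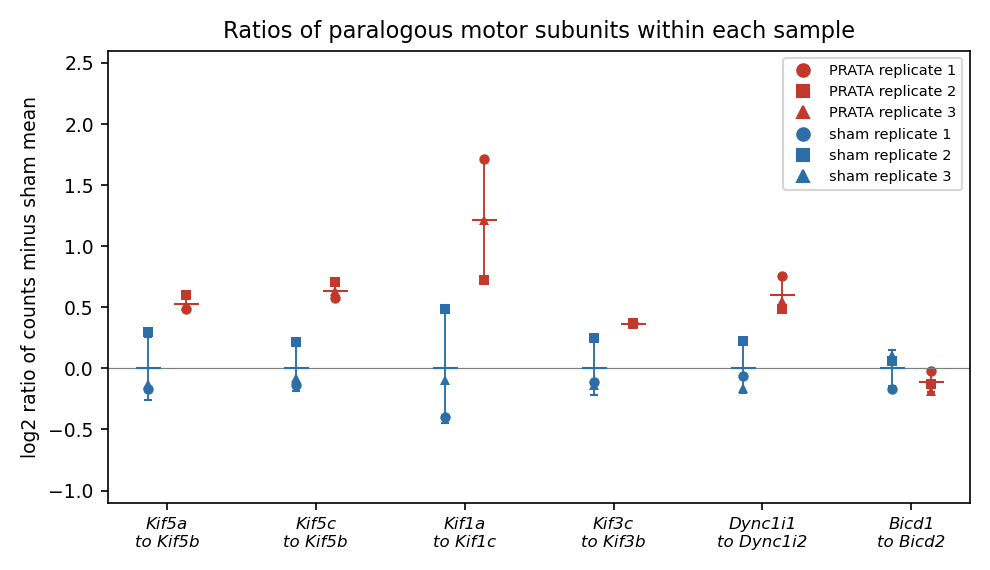
Log2 ratio of the counts of 2 paralogous subunits in each sample, with the mean of the sham samples set to 0 (vertical axis), for 6 pairs (horizontal axis), with PRATA samples in red and sham samples in blue. Horizontal ticks are group means and bars are 1 SD of the 3 samples. The red markers lie above the blue ones in 5 pairs, and those of Bicd1 to Bicd2 overlap.

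Non-neuronal markers moved beside these ratios, and not all in the same direction. Most markers of Schwann cells (7 of 8), macrophages (7 of 8) and endothelial cells (6 of 7) had a positive log2 fold change. Their medians were 0.75, 0.71 and 0.32, whereas most satellite glial cell and fibroblast markers had a negative one. All 8 satellite glial cell markers had a negative log2 fold change, with a median of -0.53, and 1 of them (Sox10) fell, beside 10.1% of all genes. Their summed level was 3826, 6215 and 3242 CPM after PRATA and 7542, 4358 and 8609 CPM after sham. The sum was lowest among the sham samples in replicate 2 and highest among the PRATA samples in replicate 2. These samples had the ratios nearest to the other group for Kif1a to Kif1c and for Dync1i1 to Dync1i2. For Kif5a to Kif5b and Kif5c to Kif5b, PRATA replicate 2 instead had the highest ratio of all samples, 2.89 and 1.16. Kif3c to Kif3b was nearly the same in all PRATA samples. Of the 7 fibroblast markers, 6 had a negative log2 fold change and 1 (Postn) fell, beside 10.1% of all genes. The summed levels of these markers were 484 to 2534 CPM after PRATA and 1377 to 2522 CPM after sham. No satellite glial cell or fibroblast marker was at 0 in any sample, and the part of non-neuronal cells in the ratios was not tested.

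Mitotic kinesins were low in all samples. Of the 14 genes 10 passed the filter, and 6 of these had a positive and 4 a negative log2 fold change, beside 52.0% positive over all genes. None rose or fell, beside 8.19% and 10.1% of all genes. Every one of the 14 overlapped between the groups, and the summed level of the family was 23.5, 24.0 and 30.9 CPM after PRATA and 27.6, 33.6 and 18.3 CPM after sham. Highest and lowest were thus both sham samples. The median log2 fold change was 0.23, with 0.47 without sham replicate 2, 0.06 without PRATA replicate 2 and -0.05 without sham replicate 3. It became -0.38 relative to the neuron markers, beside -0.53 over all genes tested.

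Kif11 (ENSRNOG00000056069), the motor that pushes spindle poles apart, was at 4.26, 3.98 and 5.77 CPM after PRATA and at 3.8, 4.53 and 2.46 CPM after sham, with a log2 fold change of 0.39 ± 0.35 (adjusted p = 0.574). Kif23 (ENSRNOG00000014080), a motor of cytokinesis, was at 2.84, 2.31 and 3.48 CPM after PRATA and at 2.90, 2.03 and 1.23 CPM after sham, with a log2 fold change of 0.47 ± 0.43 (adjusted p = 0.587). Both had overlapping groups, and in both sham replicate 3 was the lowest sample.

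Kif22 (ENSRNOG00000020281), which pushes chromosome arms, was at 1.55, 3.90 and 2.29 CPM after PRATA and at 2.14, 2.81 and 1.61 CPM after sham. Kif20b (ENSRNOG00000018929), another motor of cytokinesis, was at 1.68, 1.67 and 3.32 CPM after PRATA and at 2.83, 4.06 and 1.98 CPM after sham. Their log2 fold changes were 0.27 ± 0.46 (adjusted p = 0.792) and -0.38 ± 0.46 (adjusted p = 0.686), and their groups overlapped. The 4 mitotic kinesins without a test, Kif2b, Kif2c, Kif14 and Kif18b, lay at or below 2.34 CPM in every sample, and Kif2b had 0 counts in all PRATA samples and in sham replicate 1 but 15 and 5 counts in sham replicates 2 and 3.

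Other genes of dividing cells gave no call either. Of 19 proliferation markers 15 were tested, 10 of them with a positive log2 fold change and a median of 0.07. None rose or fell, beside 8.19% and 10.1% of all genes. Their summed level was 82.7 to 94.2 CPM after PRATA and 83.1 to 110.4 CPM after sham. At such depths a change of a mitotic kinesin would have had to be large to be detected, as the standard errors of 0.35 to 0.59 on the log2 scale show.

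**Figure D4:**
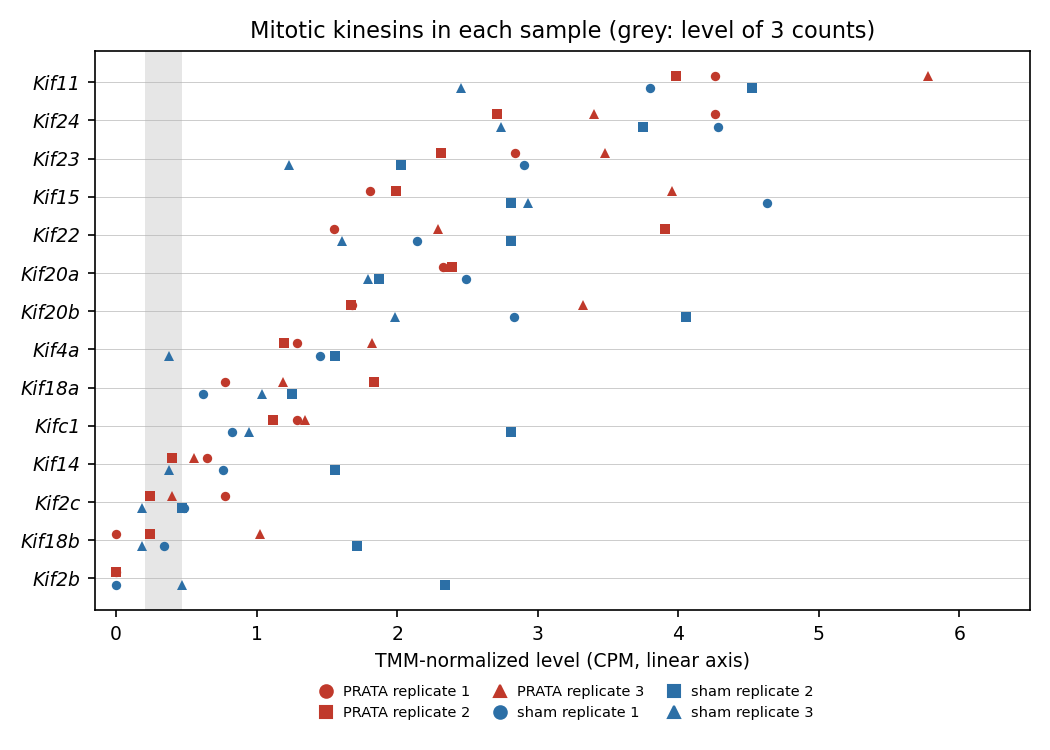
Level of each of the 14 mitotic kinesins in each sample, in TMM-normalized CPM on a linear axis, with PRATA samples in red and sham samples in blue and 1 marker shape per replicate number. The grey band spans the level of 3 counts in the 6 samples, 0.207 to 0.468 CPM, and red and blue markers overlap in every row.

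Of the 11 other kinesins 8 were tested, with 2 that rose, beside 8.19% of all genes, and 1 that fell, beside 10.1%. Kif19 (ENSRNOG00000003105), a motor that shortens microtubules at the tips of cilia, was at 12.3, 27.3 and 8.22 CPM after PRATA and at 7.32, 6.71 and 3.21 CPM after sham. PRATA replicate 2 stood far above the other samples, while PRATA replicate 3 was just above sham replicate 1. The log2 fold change of Kif19, 1.47 ± 0.49, was the largest of all motor genes tested (adjusted p = 0.200) and was 0.83 without PRATA replicate 2, where it no longer passed the test, and 1.19 without sham replicate 3, where it also did not pass.

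Markers of Schwann cells were highest in the same sample, PRATA replicate 2. Their summed level was 970.1, 1527 and 872 CPM after PRATA and 914, 805 and 707 CPM after sham. Of the 8 markers, 7 had a positive log2 fold change, beside 52.0% of all genes, and 2 rose, beside 8.19%. None was at 0 in any sample. The part of these cells in the level of Kif19 was not tested.

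Kif26b (ENSRNOG00000028624), an atypical kinesin without ATPase activity that takes part in Wnt5a signalling, was at 46.7, 48.7 and 50.9 CPM after PRATA and at 42.8, 25.4 and 32.8 CPM after sham. The PRATA samples were close together and above the more widely spread sham samples. Kif26b rose by 0.53 ± 0.21 on the log2 scale (adjusted p = 0.245), passed only without sham replicate 1 when each sample was left out (0.37 to 0.72 over the 6 fits), and the difference was -0.005 relative to the neuron markers.

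Kifc3 (ENSRNOG00000014087), a minus-end-directed kinesin known from cell junctions, was at 18.9, 21.7 and 21.4 CPM after PRATA and at 48.9, 21.9 and 47.0 CPM after sham. Sham replicate 2 was nearly at the level of the PRATA samples, and the other 2 sham samples were far above. Kifc3 fell by 0.93 ± 0.30 on the log2 scale (adjusted p = 0.188), and no longer passed without sham replicate 3, where the log2 fold change was -0.78. The summed satellite glial cell markers, given above, were also lowest in replicate 2 among the sham samples, at 4358 CPM against 7542 and 8609 CPM in replicates 1 and 3. Among the PRATA samples they were at 3826, 6215 and 3242 CPM, whereas Kifc3 was nearly level there. The part of these cells in the level of Kifc3 was not tested.

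Kif2a (ENSRNOG00000014000), a microtubule-shortening kinesin that prunes axon branches, was at 66.5, 51.6 and 53.1 CPM after PRATA and at 47.7, 56.5 and 52.8 CPM after sham. Its groups overlapped, with a log2 fold change of 0.13 ± 0.17 (adjusted p = 0.731). Kif7, Kif9, Kif26a and Kif27 had log2 fold changes between -0.39 and 0.50 and did not pass the test, and Kif6, Kif12 and Kif28p were at or below 1.09 CPM in every sample.

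Cytoplasmic dynein gave fewer calls than the axonal transport kinesins. Of its 13 genes 12 were tested, and 9 had a positive log2 fold change, beside 52.0% of all genes. None rose, beside 8.19% of all genes, and 1 (Dynlt1) fell, beside 10.1%. The median log2 fold change was 0.19. That median was 0.10 without sham replicate 1, 0.33 without sham replicate 2 and -0.002 without PRATA replicate 3 and sham replicate 1. It was -0.35 relative to the neuron markers, beside -0.53 over all genes tested. Whether the 2 families differed from each other was not tested.

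Dync1h1 (ENSRNOG00000006178), the heavy chain that holds the motor domain, was at 2906, 2524 and 3083 CPM after PRATA and at 2134, 2515 and 2163 CPM after sham. The groups were separated only by the narrow gap between PRATA replicate 2 and sham replicate 2, and the log2 fold change was 0.32 ± 0.21 (adjusted p = 0.447). Relative to the neuron markers Dync1h1 was lower in every PRATA sample than in every sham sample, with a difference of -0.25. The median over all genes tested was lower still on that scale, -0.53, and the share of all genes without overlap was not computed.

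The intermediate chains join the heavy chain to dynactin. Dync1i1 (ENSRNOG00000009700), the neuronal form, was at 216, 146 and 209.6 CPM after PRATA and at 98.4, 184 and 112 CPM after sham. Dync1i2 (ENSRNOG00000009781), the general form, was at 465, 379 and 520.2 CPM after PRATA and at 375, 572 and 455 CPM after sham. Both overlapped between the groups, with log2 fold changes of 0.54 ± 0.28 (adjusted p = 0.331) and -0.04 ± 0.23 (adjusted p = 0.946), and in both sham replicate 2 was the highest sham sample.

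The light intermediate chains bind the adaptors that carry cargo. Dync1li1 (ENSRNOG00000010434) was at 136, 105 and 132 CPM after PRATA and at 90.8, 132 and 102 CPM after sham. Dync1li2 (ENSRNOG00000025791) was at 442, 396 and 478 CPM after PRATA and at 324, 414 and 372 CPM after sham. Their groups overlapped through sham replicate 2, with log2 fold changes of 0.20 ± 0.20 (adjusted p = 0.622) and 0.25 ± 0.19 (adjusted p = 0.518).

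Among the light chains, Dynll1 (ENSRNOG00000011222) and Dynll2 (ENSRNOG00000008921) encode the LC8 chains, which also serve many proteins outside dynein. Dynll1 was at 179, 147 and 194 CPM after PRATA and at 156, 148 and 123 CPM after sham. Dynll2 was at 357, 252 and 291 CPM after PRATA and at 163, 255 and 209 CPM after sham. Both overlapped between the groups, with log2 fold changes of 0.29 ± 0.18 (adjusted p = 0.432) and 0.52 ± 0.23 (adjusted p = 0.280).

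Dynlt1 (ENSRNOG00000018207), a Tctex-type light chain, was at 6.58, 7.33 and 7.196 CPM after PRATA and at 10.4, 9.21 and 14.8 CPM after sham. All PRATA samples lay below all sham samples, of which replicate 3 was the highest. Dynlt1 fell by 0.71 ± 0.25 on the log2 scale (adjusted p = 0.220) and no longer passed without PRATA replicate 1 (-0.69), PRATA replicate 3 (-0.72) or sham replicate 3 (-0.47). How reads that map to near-identical copies were counted is not given in the sources used here, which leaves genes with such copies, the small light chains among them, less certain. The remaining dynein genes tested, Dynlt3, Dynlrb1, Dync2h1 and Dync2li1, had log2 fold changes between -0.22 and 0.19, and Dynlrb2 was at or below 0.780 CPM in every sample.

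Dynactin tethers dynein to its cargo and makes it move over long distances. All 6 of its genes had a positive log2 fold change, beside 52.0% of all genes, with a median of 0.21. None rose or fell, beside 8.19% and 10.1% of all genes. The median was 0.12 without sham replicate 1, 0.13 without PRATA replicate 1, 0.34 without PRATA replicate 2 and 0.43 without sham replicate 2. Dctn1 (ENSRNOG00000010048), which encodes the large p150Glued subunit that grips the microtubule, was at 1225, 981 and 1369 CPM after PRATA and at 721, 967 and 811 CPM after sham. The lowest PRATA sample barely exceeded the highest sham sample, and the log2 fold change was 0.52 ± 0.23 (adjusted p = 0.277).

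Dctn2 (ENSRNOG00000025481), the dynamitin subunit of the shoulder, was at 182, 156 and 177 CPM after PRATA and at 108, 157 and 133 CPM after sham, with overlapping groups and a log2 fold change of 0.37 ± 0.19 (adjusted p = 0.328). The other 4 genes, Dctn3 to Dctn6, overlapped between the groups and had log2 fold changes between 0.09 and 0.29. Relative to the neuron markers the median of the 6 was -0.34, beside -0.53 over all genes tested. On that scale Dctn2, Dctn5 and Dctn6 were lower in every PRATA sample than in every sham sample, and the share of all genes for which this held was not computed.

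The BICD adaptors link dynein and dynactin to vesicles and activate the motor. Bicdl1 (ENSRNOG00000056955), whose product BICDR-1 binds RAB6 vesicles, dynein and KIF1C in developing neurons, was at 23.8, 20.4 and 19.7 CPM after PRATA and at 9.47, 9.21 and 8.69 CPM after sham. Both groups were tight, and each PRATA sample was far above each sham sample, with a mean of 21.3 ± 2.17 CPM against 9.12 ± 0.395 CPM (SD, n = 3 each). Bicdl1 rose by 1.22 ± 0.19 on the log2 scale, with the smallest p of all motor genes (adjusted p = 0.156).

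Bicdl1 was the steadiest of the motor genes that rose. Its log2 fold change lay between 1.11 and 1.27 when each sample was left out in turn, with p under 0.05 in all 6 fits, and was 1.29 without the 2 libraries that stood apart by their 7SL RNA. Its adjusted p was 0.0315 by limma voom, 0.000524 by DESeq2 and 0.0340 by edgeR without sham replicate 2. It was also higher in every PRATA sample relative to the neuron markers, by 0.64, which among the 60 motor genes tested held for Klc3 as well and for no other. On that scale 1702 of all 14919 genes tested had a positive difference, and the share of all genes without overlap between the groups was not computed.

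Bicd1 (ENSRNOG00000036911) and Bicd2 (ENSRNOG00000016031) are the longer adaptors of Golgi and RAB6 vesicles. Bicd1 was at 93.3, 82.7 and 81.5 CPM after PRATA and at 73.7, 81.0 and 85.4 CPM after sham. Bicd2 was at 192, 183 and 188 CPM after PRATA and at 168, 158 and 160.3 CPM after sham. Only Bicd2 did not overlap between the groups, and neither passed the test, with log2 fold changes of 0.10 ± 0.15 (adjusted p = 0.758) and 0.21 ± 0.15 (adjusted p = 0.475). Bicdl2 was at 2.50 to 8.05 CPM with overlapping groups.

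Motors work with adaptors, regulators and dynactin partners that the symbols above do not cover, and 37 such genes listed were found in the table. Of the 36 tested, 24 had a positive log2 fold change, beside 52.0% of all genes, 6 rose (Sybu, Mapk8ip1, Ppfia2, Mapk8ip3, Rab11fip3 and Hap1), beside 8.19%, and 0 fell, beside 10.1%, with a median of 0.17. None of the 6 passed with the replicate block, and each passed in 2 to 4 of the 6 fits with 1 sample left out. Sybu, which encodes syntabulin, an adaptor of kinesin-1 for mitochondria and synaptic cargo, was at 68.2, 52.7 and 65.1 CPM after PRATA and at 39.2, 48.4 and 38.8 CPM after sham. Mapk8ip1, which encodes JIP1, the adaptor that joins kinesin-1 to the amyloid precursor protein, was at 248, 223 and 229 CPM after PRATA and at 134, 188 and 151 CPM after sham. Ppfia2, which encodes liprin-alpha-2, a partner of KIF1A at presynaptic sites, was at 42.2, 37.9 and 46.6 CPM after PRATA and at 28.5, 34.3 and 26.6 CPM after sham.

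None of these 3 genes overlapped between the groups, and sham replicate 2 was the highest sham sample in each. They rose by 0.56 ± 0.18, 0.57 ± 0.19 and 0.50 ± 0.18 on the log2 scale, with adjusted p of 0.194, 0.194 and 0.216 in edgeR's quasi-likelihood test. Kifap3, which encodes the cargo-binding subunit of kinesin-2, overlapped between the groups with a log2 fold change of 0.39 ± 0.24 (adjusted p = 0.428). Pafah1b1, which encodes the dynein regulator LIS1, also overlapped, with a log2 fold change of 0.11 ± 0.21 (adjusted p = 0.826).

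**Figure D5:**
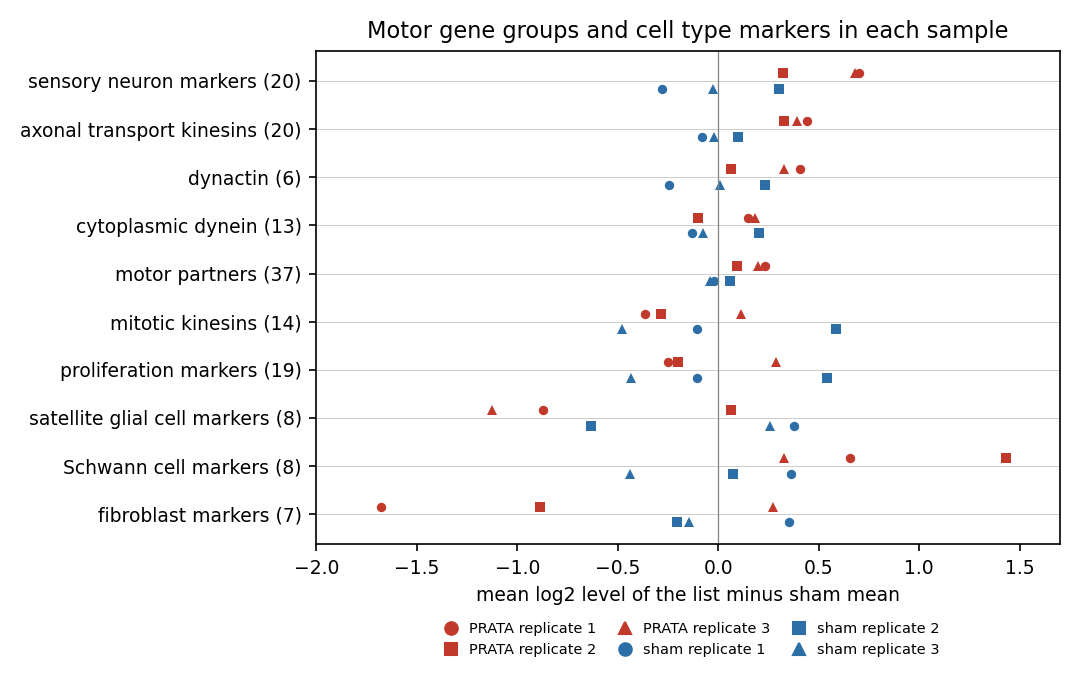
Mean log2 level of each gene list (vertical axis, number of genes in parentheses) in each sample, with the mean of the sham samples set to 0 (horizontal axis), for 4 motor families, their partners and 5 lists of cell type or proliferation markers. Red markers are PRATA samples and blue markers sham samples. The axonal transport kinesins, the motor partners and the sensory neuron markers have every red marker to the right of every blue one, whereas dynein, dynactin, mitotic kinesins, proliferation markers and the 3 non-neuronal lists overlap.

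Sample by sample, the mean log2 level of the 20 axonal transport kinesins was 7.11, 6.995 and 7.06 after PRATA and 6.59, 6.77 and 6.65 after sham, and that of the 20 neuron markers was 9.004, 8.62 and 8.98 after PRATA and 8.02, 8.61 and 8.28 after sham. Both lists were lowest in sham replicate 1 and, within the PRATA group, in replicate 2. The mean of the mitotic kinesins was 0.20, 0.28 and 0.67 after PRATA and 0.46, 1.15 and 0.08 after sham and did not follow that order.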

How the data were processed

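The deposited table held raw read counts of each gene in the 6 samples, which the authors made and did not normalize. The submitters' processing notes name STAR 2.7.3a, RSEM and DESeq2, while the methods of the study name HISAT2, StringTie and Cuffdiff. The genome build, the annotation release, the strand setting of the counting and the treatment of reads with several matches are not given in the sources used here. All sample columns were used, and total counts ranged from 5892967 to 15226952.

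The software was edgeR 4.0.16, DESeq2 1.42.0 and limma 3.58.1 under R 4.3.3. Low genes were removed by filterByExpr (minimum count 10, minimum total 15), scaled by TMM (factors 0.953 to 1.10) and compared by the quasi-likelihood test, two-sided, without covariates, with p adjusted over all 14919 genes tested by Benjamini and Hochberg's method. Standard errors are the absolute log2 fold change divided by the square root of F. Log2 levels of lists, and levels relative to the neuron markers, were computed after adding 1 count on average, scaled to library size. Ratios of paralogs were compared by exact permutation tests. The scripts were checked on simulated data, and matplotlib 3.10.9 under Python 3.11.15 drew the figures.

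The members and all gene lists were chosen with earlier results of these data known, so their counts are given beside those of all genes and no list was tested as a set. Of the listed genes, between 87.5% and 100% per list matched the table by symbol. Values in every sample are given for the main subunits of each motor, for each member with an unadjusted p under 0.05 and for the 3 motor partners with the smallest p, and other genes are given in ranges or as single values. Upstream windows and their coordinates come from RefSeq (GRCr8), and no coordinate was taken from the counts. The alternatives were size factors from DESeq2, scaling by library size alone, DESeq2 itself, limma voom with sample quality weights, no filter, a replicate block, a fit of protein-coding genes alone, leaving out each sample in turn, levels relative to neuron markers, and 2 added counts or the replicate block for the ratios. The fit without PRATA replicate 3 and sham replicate 1 was added after seeing the data. Some genes of the marker lists are not reported here by name.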

Additional observations from a re-analysis of the deposited data

How the results depend on the processing

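The number of motor genes that rose (11) became 22 with limma voom, 5 with the replicate block, 5 without PRATA replicate 3 and sham replicate 1 (a fit chosen after seeing the data), and 4 to 18 with 1 sample left out. The number that fell (3) became 1 in that fit of 4 samples and 1 to 4 with 1 sample left out. The median log2 fold change of the axonal transport kinesins (0.46) was 0.54 with limma voom, 0.35 with the 4 samples and -0.084 relative to the neuron markers, and it was 0.30 to 0.62 with 1 sample left out. Relative to the neuron markers the medians became -0.38 for mitotic kinesins, -0.35 for dynein and -0.34 for dynactin, beside -0.53 over all genes tested. Kif26b turned to -0.005 on that scale. The dynein median was -0.002 with the 4 samples, and the dynactin median was 0.121 to 0.428 with 1 sample left out. The cause of these shifts was not tested. The labels give both groups replicates 1 to 3, but same-numbered samples did not deviate together from their group means across genes (r = -0.348, -0.037 and -0.349), so the numbers were not taken to pair the samples. With the replicate block, 7 of the 14 members that rose or fell still passed, and the medians were 0.49 for axonal transport kinesins, 0.20 for mitotic kinesins, 0.22 for dynein and 0.23 for dynactin, while the mean differences of the paralog ratios were by construction the same. Without a filter on low counts the median of all genes shifted from 0.03 to -0.168, and 14 motor genes rose and 4 fell. DESeq2's size factors changed the call of 0 of the 38 members given in every sample, library size alone of 3, protein-coding genes alone of 3, no filter of 5, DESeq2 of 4 and limma voom of 11. Low counts left 4 of 14 mitotic kinesins and 3 of 11 other kinesins without a test.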

Other observations

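Several of the sensory neuron markers that accompany the motor genes rose after PRATA on their own. Pou4f1, which encodes the transcription factor BRN3A of sensory neurons, was at 48.5, 47.7 and 48.4 CPM after PRATA and at 20.9, 24.0 and 26.5 CPM after sham, with a log2 fold change of 1.02 ± 0.17 (adjusted p = 0.156 in edgeR's quasi-likelihood test). Tubb3, which encodes the neuronal beta-tubulin of the tracks on which the motors walk, was at 1588, 1729 and 1847 CPM after PRATA and at 874, 1127 and 946 CPM after sham, with a log2 fold change of 0.81 ± 0.21 (adjusted p = 0.168). In these 2 genes, which were chosen after their values were seen, the lowest PRATA sample lay above the highest sham sample.

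The neurofilament genes Nefl, Nefm and Nefh, whose products are slow cargo of axonal transport, had log2 fold changes of 0.64 ± 0.33, 0.59 ± 0.31 and 0.70 ± 0.36 and did not pass the test, and in each of them PRATA replicate 2 lay below sham replicate 2. Of 8 macrophage markers 7 had a positive log2 fold change with a median of 0.71, and none rose or fell, beside 8.19% and 10.1% of all genes. Of 7 endothelial markers 6 had a positive log2 fold change with a median of 0.32, and 1 (Vwf) rose, beside 8.19%. All genes of both lists overlapped between the groups.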
